A study of Mus musculus with 58 samples.

Results

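Degradation of the Polycomb subunits PCGF3 and PCGF5 was examined in mouse embryonic stem (ES) cells in which Xist had not been induced, that is, before any X inactivation. The comparison used 4 of the 58 libraries of the series, chosen by their titles as the uninduced ES libraries of the PCGF35_SPOC line with and without dTAG-13. It covered all 22556 genes of the count tables, of which 15444 passed a filter on low counts and were tested. Chromatin-associated RNA (ChrRNA), the RNA that stays with the insoluble chromatin and is rich in unspliced transcripts, was sequenced from female hybrid cells of the cross 129S x Cast.

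All libraries used here carried the following alleles. The Xist promoter of the 129S X was replaced by a TetOn promoter, PCGF3 and PCGF5 were fused to an FKBP12 degron, and the PCGF35_SPOC line also carried a mutated SPOC domain of SPEN. The 2 untreated libraries came from clones F10 and F6, and the 2 treated libraries came from the same clones given dTAG-13, a compound that brings the tagged proteins to an E3 ligase for destruction. No doxycycline was added in these 4 cultures. The labels give 100 uM dTAG-13 from 12 h before doxycycline, and the names of the 2 treated count tables give 36 h. Names of the treated libraries with 1 day of doxycycline carry 36 h as well. By these names the uninduced cultures were exposed for as long. Each clone is 1 cell line. Clone F6 was sub-cloned by the authors because part of the culture had lost an X. The ES cells were grown on mouse fibroblast feeders, which were removed before plating. Libraries of the same clones after 1 day of doxycycline, with and without dTAG-13, and 4 uninduced libraries of the PCGF35 line, which has the degrons and a normal SPOC domain, were set beside them.

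PCGF3 and PCGF5 are alternative subunits of a variant Polycomb repressive complex 1 (PRC1). PRC1 places ubiquitin on histone H2A, and the PCGF3/5 form is the one brought to Xist-coated chromatin through the RNA-binding protein HNRNPK. In ES cells, several variant PRC1 complexes act at CpG islands of genes that are silent or weakly expressed, whereas the PCGF3/5 form is known for a diffuse layer of H2A ubiquitin over gene bodies and intergenic chromatin. The uninduced comparison therefore asks what loss of PCGF3/5 does to transcription before Xist is made.

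Depth in the 4 libraries ran from 14387121 to 17832963 fragments, and between 6668963 and 8257904 of these were assigned to an allele. The 2 libraries of a group were distinct cultures by their counts: chi-square over its degrees of freedom came to 64.2 for the untreated and 60.9 for the treated libraries, where counting noise alone would give about 1. Of 8 ES cell markers, 7 were detected, with summed levels of 1242 to 1322 CPM (fragments scaled to a common library total) over the 4 libraries, and Sox2 was listed at 0 in all of them. Neural markers summed to 74.2 and 75.6 CPM in F10 and to 18.8 and 16.6 CPM in F6, with Sox1 at 0. Fibroblast markers summed to 20.4 and 17.9 CPM in F10 and 4.29 and 4.04 CPM in F6, untreated value first. Primitive endoderm markers summed to 47.4 and 43.7 CPM in F10 and to 24.5 and 20.7 CPM in F6. No marker of the 4 lists passed the test for a difference between treated and untreated cells.

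The engineered genes were transcribed in every library. Degron control acts on protein, so RNA levels of the tagged genes cannot show whether degradation took place. By Western blot, the paper reports fast and full loss of both tagged proteins after dTAG-13. That blot was of the PCGF35 line, with a normal SPOC domain. Pcgf3 RNA was at 88.5 and 97.7 CPM in untreated F10 and F6 cells and at 86.8 and 95.0 CPM in treated ones (log2 fold change -0.04, SE 0.0581). Pcgf5 was at 52.3 and 52.6 CPM untreated and at 50.9 and 46.7 CPM treated (log2 fold change -0.11, SE 0.0709). For Spen, whose SPOC domain is mutated here, untreated levels of 365 and 347 CPM stood against 340 and 299 CPM, a log2 difference of -0.16 that did not pass (adjusted p = 0.406). Xist, still under an uninduced TetOn promoter, was at 74.6 and 64.9 CPM untreated and at 76.2 and 82.0 CPM treated (adjusted p = 0.531).

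Few genes passed the test, and most of those that did were lower after dTAG-13. These are counts of calls, and small changes can be missed by them. With edgeR's quasi-likelihood test and clone as a term, 17 genes were higher and 54 lower after dTAG-13 at an adjusted p under 0.05, which is 0.46% of the genes tested (0.11% higher and 0.35% lower). At an unadjusted p under 0.05 there were 1329 genes (8.61%), of which 553 were higher (3.58%) and 776 lower (5.02%). The changes were small. Only 10 of the 71 genes moved by over 1.5-fold, the median log2 fold change was 0.34 among the higher genes, and it was -0.35 among the lower ones. All 71 moved the same way in both clones, which the rule for a call favours. In 23 of the 71 both treated libraries lay outside the range of both untreated ones, against 12.8% of all genes tested. In the other 48 the ranges of the groups overlapped, although each clone moved the same way.

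**Figure D1:**
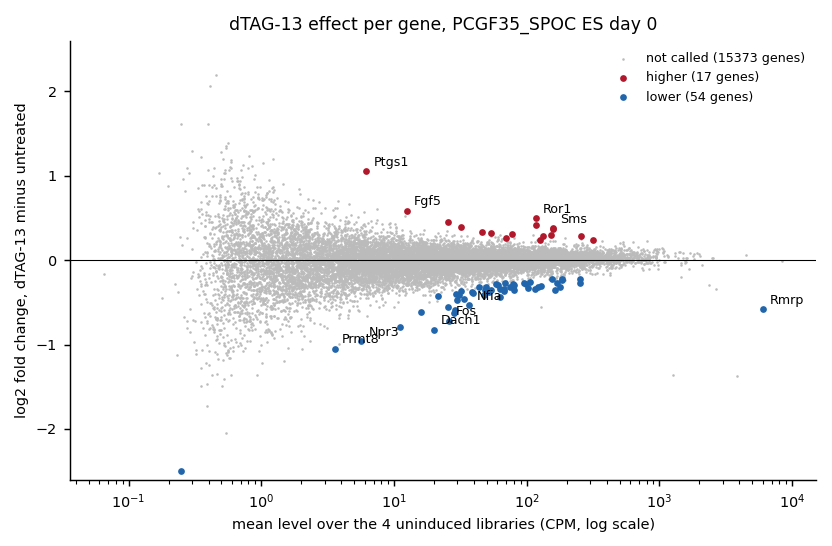
Log2 fold change of each tested gene (y axis, dTAG-13 minus untreated) against its mean level over the 4 uninduced libraries (x axis, CPM, log scale), with the 17 genes called higher in red and the 54 called lower in blue. Ptgs1 and Prmt8 lie farthest from 0 among called genes of at least 1 CPM, the others follow without a gap at 1.5-fold, and Pom121l2, fitted at -6.09, is drawn at -2.5.

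The lower genes are described first, beginning with transcription factors and cofactors. Nfia, a nuclear factor I transcription factor with roles in gliogenesis, lies on chromosome 4 from 97581942 to 98118876 (mm10). Its level was 42.7 and 44.3 CPM in untreated F10 and F6 cells and 29.2 and 31.0 CPM after dTAG-13. The groups did not overlap, and the log2 fold change was -0.53 (SE 0.0755, adjusted p = 0.000662, edgeR). Dach1, a transcriptional cofactor of eye, limb and gonad development on chromosome 14 (97786845 to 98169765), was at 38.4 and 11.8 CPM untreated and at 23.9 and 5.55 CPM treated. F10 held more of it than F6 in either state, so the groups overlapped, but the drop was present in both clones (log2 fold change -0.83, SE 0.121, adjusted p = 0.000662).

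Nrg3, which encodes a neuregulin ligand of the receptor ERBB4, fell from 59.9 to 39.6 CPM in F10 and from 8.78 to 5.20 CPM in F6 (log2 fold change -0.63, SE 0.0948, adjusted p = 0.000662). Kcnh7, a voltage-gated potassium channel gene, went from 50.7 to 35.8 CPM and from 17.4 to 10.5 CPM in the same clones (-0.59, SE 0.0913, adjusted p = 0.000933). Levels of both genes differed more between clones than between treatments. Foxp2, a forkhead factor of brain development, was at 49.2 and 11.2 CPM untreated and 33.8 and 7.47 CPM treated (-0.56, SE 0.0931, adjusted p = 0.00217). Kif26b, an atypical kinesin, dropped from 35.2 to 23.8 CPM and from 34.3 to 26.2 CPM without overlap (-0.47, SE 0.0838, adjusted p = 0.00363).

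Some lower genes were expressed at low levels. Prmt8, an arginine methyltransferase of the nervous system, had 5.92 and 3.80 CPM untreated and 2.24 and 2.39 CPM treated, the largest fitted change among lower genes of at least 1 CPM (-1.05, SE 0.220, adjusted p = 0.0168). Npr3, the natriuretic peptide clearance receptor, went from 12.0 to 7.19 CPM in F10 and from 2.80 to 0.701 CPM in F6 (-0.96, SE 0.198, adjusted p = 0.0141). Bahcc1, which encodes a chromatin protein with a BAH domain, was at 19.6 and 8.44 CPM before and 10.7 and 5.37 CPM after treatment (-0.79, SE 0.128, adjusted p = 0.00189). Trank1 had 21.2 and 17.3 CPM untreated and 12.3 and 12.8 CPM treated (-0.61, SE 0.113, adjusted p = 0.00558). The treated and untreated libraries were separate for Prmt8 and Trank1 and overlapped for Npr3 and Bahcc1. The single called gene below 1 CPM, Pom121l2, had 6 and 10 fragments in untreated F10 and F6 and 0 in both treated libraries. Against a floor of 3 fragments over the treated group it was at least 5.84-fold lower. Floors cover counting error only.

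Short genes were rare among those that fell, and Fos and Rmrp were 2 of them. Fos, the immediate early gene of the AP-1 factor, fell from 37.1 to 20.9 CPM in F10 and from 27.2 to 17.9 CPM in F6 (-0.72, SE 0.118, adjusted p = 0.00189). Rmrp, the RNA of RNase MRP and 1 of the most abundant transcripts of these libraries, went from 10590 to 6387 CPM and from 3958 to 3027 CPM (-0.58, SE 0.113, adjusted p = 0.00944). Rmrp took 1.02% of all fragments in untreated F10 and 0.623% in treated F10, and 0.411% and 0.308% in F6. The treated and untreated libraries were separate for Fos and overlapped for Rmrp, whose clones differed more than its treatments. Rpph1, the RNA of RNase P, took 0.221% and 0.244% in F10 and 0.0648% and 0.0397% in F6, higher in 1 clone and lower in the other.

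The lower genes not yet described had smaller changes. Bmp6, a BMP ligand, had 73.3 and 71.5 CPM untreated and 52.2 and 54.4 CPM treated without overlap (-0.44, SE 0.0654, adjusted p = 0.000662), and it shared the smallest adjusted p with Nfia, Dach1, Nrg3, Sms and Gpc4. Among axon guidance and adhesion genes, Efna5, an ephrin ligand, went from 277 to 233 CPM in F10 and from 87.1 to 61.0 CPM in F6. Its receptor family member Epha7 fell from 89.6 to 71.7 CPM and from 51.6 to 40.4 CPM. Slit2, a ligand of ROBO receptors, dropped from 274 to 221 CPM and from 274 to 232 CPM. Unc5d, a netrin receptor, fell from 66.0 to 51.5 CPM and from 51.3 to 39.0 CPM. These 4 genes were named after their values were seen, and each changed by -0.27 to -0.37 on the log2 scale. All 53 lower genes other than Pom121l2 ranged from -0.22 to -1.05.

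The higher genes included growth factor receptors and a DNA methyltransferase. Sms, spermine synthase, on the X from 157443953 to 157492046, was at 149 and 123 CPM in untreated F10 and F6 cells and at 199 and 156 CPM after dTAG-13. The groups did not overlap (log2 fold change 0.38, SE 0.0551, adjusted p = 0.000662). Gpc4, a glypican that binds growth factors at the cell surface, on the X from 52053017 to 52164923, rose from 124 to 160 CPM in F10 and from 76.2 to 105 CPM in F6 (0.42, SE 0.0626, adjusted p = 0.000662). Ror1, a receptor of the WNT5A pathway, went from 128 to 166 CPM and from 68.1 to 105 CPM (0.50, SE 0.0876, adjusted p = 0.00363). In each of these 3 genes the gain was seen in both clones, and F10 stood above F6.

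Dnmt3b, a de novo DNA methyltransferase that rises as ES cells leave the naive state, had 191 and 86.9 CPM untreated and 232 and 121 CPM treated (0.37, SE 0.0743, adjusted p = 0.0109). Fgf5, a marker of formative pluripotency, rose from 19.6 to 28.8 CPM in F10, while in F6 it was at 0.503 and 0.993 CPM, a level of few fragments (0.58, SE 0.134, adjusted p = 0.0366). Tcf7l1, a transcriptional repressor of the WNT pathway, went from 175 to 208 CPM and from 100 to 128 CPM (0.30, SE 0.0558, adjusted p = 0.00597). Fgfr2, an FGF receptor, was at 70.2 and 67.4 CPM before and at 93.8 and 78.2 CPM after treatment without overlap (0.31, SE 0.0665, adjusted p = 0.0174). Ptgs1, a cyclooxygenase of prostaglandin synthesis, showed the largest rise, from 4.48 to 10.3 CPM and from 3.47 to 6.42 CPM (1.05, SE 0.178, adjusted p = 0.00238).

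Among the remaining higher genes, the integrin Itga1 rose by 0.45, the schlafen gene Slfn9 by 0.39, the connexin gene Gja1 by 0.34 and the junction gene Cgnl1 by 0.33 on the log2 scale. Their adjusted p values were 0.0172, 0.0216, 0.0216 and 0.0438 in that order. The last 5 of the 17 were Ntn1, which encodes the ligand netrin, Ctnnal1, the noncoding gene 1700112E06Rik, the glycolytic enzyme gene Eno1 and the X-linked Prps1, which supplies nucleotide synthesis. They rose by between 0.24 and 0.29. At the threshold, Ntn1 and Cpne8 had an adjusted p of 0.0481, and the next genes, Cntnap5b and Dstn, had 0.0579 and 0.0582.

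**Figure D2:**
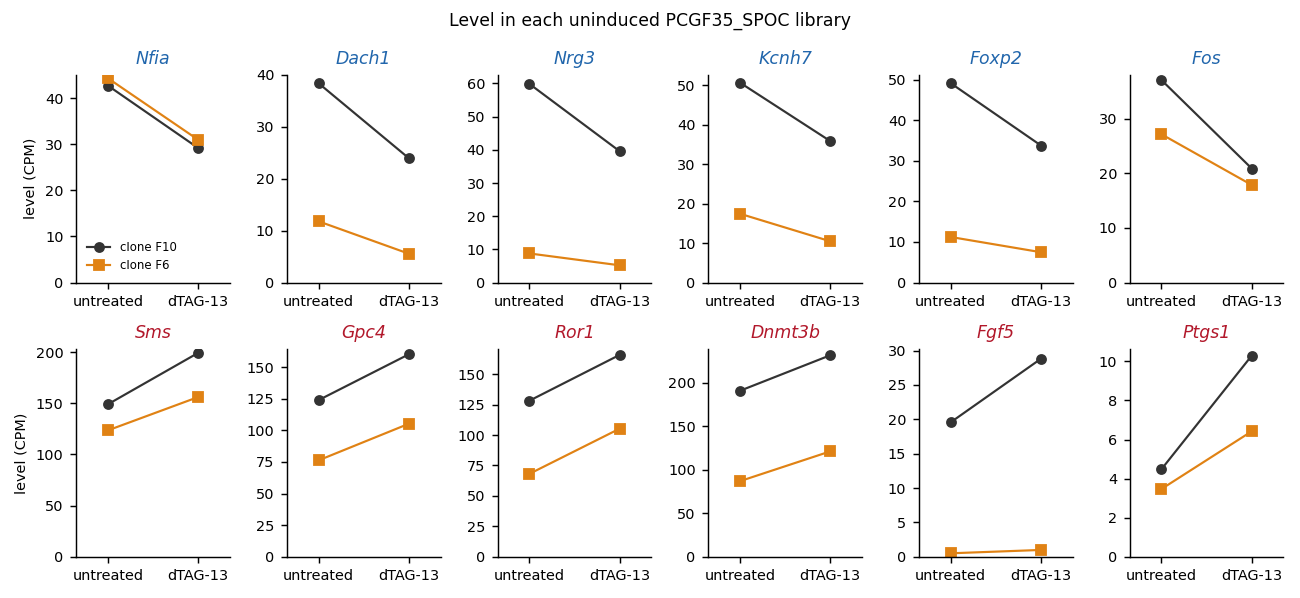
Level (y axis, CPM) of 12 called genes in the untreated and dTAG-13 libraries (x axis) of clone F10 (black circles) and clone F6 (orange squares), with the libraries of a clone joined by a line and each panel starting at 0. The 6 genes of the upper row fell in both clones and the 6 of the lower row rose in both, and for most of them, such as Dach1 and Nrg3, the clones lie farther apart than the treatments.

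Promoter sequences are shown for the 2 genes with the smallest p in each direction, since CpG-rich promoters are sites of many PRC1 complexes. Each run holds 240 bases upstream of a RefSeq start on GRCm38.p6, leaving out the 10 bases next to it, 5′ to 3′ on the gene's strand, with each CG in capitals. CG reads the same on both strands. The Nfia stretch is chr4:97581693-97581932 (plus strand), that of Dach1 is chr14:98169776-98170015 (minus), that of Sms is chrX:157492298-157492537 (minus) and that of Gpc4 is chrX:52164934-52165173 (minus). For Sms the RefSeq start nearest to the gene's start in the count tables, 241 bases away, was taken.
Nfia: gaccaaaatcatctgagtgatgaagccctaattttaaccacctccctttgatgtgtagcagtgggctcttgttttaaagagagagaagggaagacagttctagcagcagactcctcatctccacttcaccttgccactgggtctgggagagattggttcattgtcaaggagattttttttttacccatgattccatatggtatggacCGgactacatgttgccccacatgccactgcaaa
Dach1: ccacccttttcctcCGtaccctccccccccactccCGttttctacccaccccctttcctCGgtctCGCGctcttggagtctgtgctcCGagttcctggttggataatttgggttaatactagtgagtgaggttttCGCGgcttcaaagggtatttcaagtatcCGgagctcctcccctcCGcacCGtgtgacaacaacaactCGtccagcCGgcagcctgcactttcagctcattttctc
Sms: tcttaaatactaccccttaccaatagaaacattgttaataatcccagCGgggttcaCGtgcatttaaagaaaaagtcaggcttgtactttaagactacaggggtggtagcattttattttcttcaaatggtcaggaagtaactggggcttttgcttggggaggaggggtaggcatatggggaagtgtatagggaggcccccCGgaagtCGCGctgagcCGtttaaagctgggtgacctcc
Gpc4: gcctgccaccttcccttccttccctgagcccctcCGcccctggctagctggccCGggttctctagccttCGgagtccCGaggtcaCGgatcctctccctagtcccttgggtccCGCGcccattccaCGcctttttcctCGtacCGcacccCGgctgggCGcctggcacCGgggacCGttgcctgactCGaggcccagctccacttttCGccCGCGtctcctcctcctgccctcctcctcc
The 4 promoters held 1, 13, 6 and 18 CG. Of all 11468 tested genes with a RefSeq promoter, 98.5% had at least as many as Nfia, 56.6% as many as Dach1, 82.0% as many as Sms and 36.9% as many as Gpc4, so CG content did not separate the directions in these examples. Over the called genes, 31 of 40 lower genes with a promoter (77.5%) and 9 of 15 higher genes (60.0%) had 10 or more CG, against 68.1% of all. The median was 19 CG in the lower and 10 in the higher genes, and 14 over all promoters. These are descriptions of letters and not of binding.

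The genes that fell were long. The median length was 297 kb in the 54 lower genes, 54.3 kb in the 17 higher genes and 23.7 kb in all genes tested. Of the 54, 43 (79.6%) were over 100 kb and 17 (31.5%) over 500 kb, against 14.3% and 1.27% of all genes tested. ChrRNA counts include introns, so gene length enters the number of fragments. Among genes of at least 10 CPM, 17 of 141 over 500 kb, 18 of 551 of 200 to 500 kb and 8 of 999 of 100 to 200 kb were called lower. In the next classes 5 of 1689 genes of 50 to 100 kb and 0 of 2931 of 20 to 50 kb were called lower. The median SE was 0.0665 over 500 kb, 0.0603 at 50 to 100 kb, 0.0711 at 20 to 50 kb and 0.0896 at 5 to 20 kb, so the classes of 5 to 50 kb were measured less precisely than the longest one. The part of this in the counts of calls was not tested. Higher calls numbered 1 of 141 over 500 kb, 1 of 551 of 200 to 500 kb and 6 of 999 of 100 to 200 kb. Length over 100 kb was not particular to the lower calls. At this level 84.3% of the lower and 50.0% of the higher calls of day 0 were over 100 kb, as were 67.5% of the lower and 57.4% of the higher calls of day 1, against 18.1% of all genes.

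Long genes as a whole moved little. The median log2 difference of genes over 500 kb was -0.04 in F10 and -0.07 in F6, and that of genes under 5 kb was 0.03 and -0.03. When a trend with gene length was removed from each library, an alternative chosen after seeing the data, 67 genes were called, 27 higher and 40 lower, and 57 of them were among the 71. Filip1l took 1.03% of all fragments in untreated F10, 0.384% in treated F10, 0.0635% in untreated F6 and 0.0251% in treated F6, and its part in these results was not tested.

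**Figure D3:**
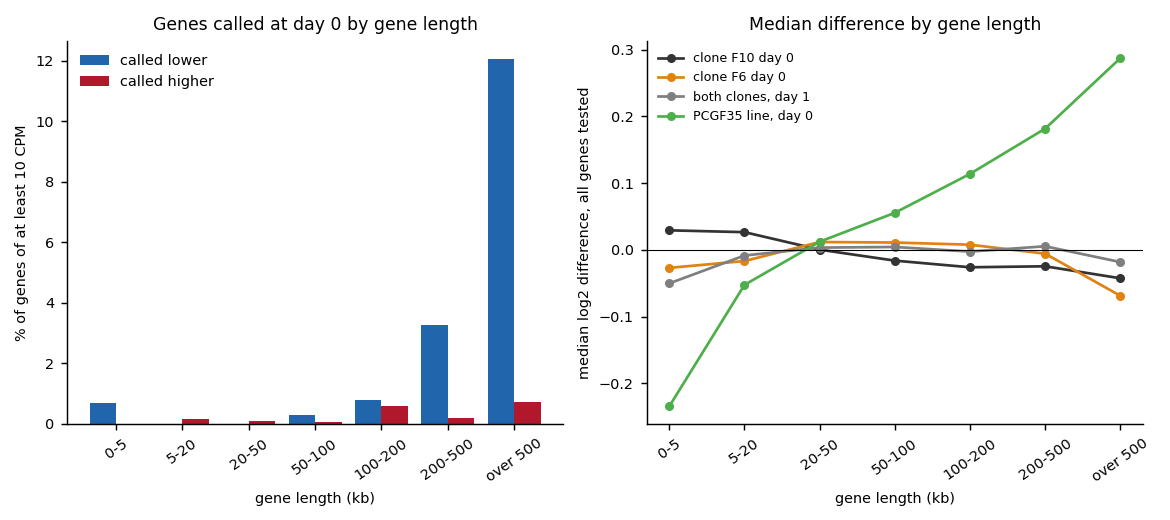
Left, the share of genes of at least 10 CPM called lower (blue) or higher (red) at day 0 in classes of gene length (x axis, kb). Right, the median log2 difference of all tested genes in the same classes for clones F10 and F6 at day 0, for both clones at day 1 and for the PCGF35 line at day 0. Lower calls gather above 200 kb, while the medians of F10 and F6 stay within 0.07 of 0 and those of the PCGF35 line run from -0.23 to 0.29.

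The same genes were then read at day 1. The day 1 libraries were in the fit behind the day 0 calls, where they shared the clone term and the estimate of the spread, so they are not fully independent of which genes passed. In these libraries, made from the same clones after doxycycline and with other untreated cultures as controls, 51 of the 54 lower genes were again below 0 and all 17 higher genes above 0. At an adjusted p under 0.05, 25 of the 54 were also lower at day 1 and none higher, against 0.278% of all genes called lower on that day. Of the 17, 10 were also higher and none lower, against 0.44%. Over all genes, 68 were called higher and 43 lower on that day, together 0.719%. At an unadjusted p under 0.05, 40 of the 54 were lower and 13 of the 17 higher at day 1, against 4.24% and 3.94% of all genes (8.18% in either direction). Nfia had a log2 fold change of -0.52 at day 1 (adjusted p = 0.000263), Efna5 of -0.56, Dach1 of -0.68, Npr3 of -1.42, Sms of 0.27 and Cgnl1 of 0.52. Fos was at 0.08 and Rmrp at -0.30, and neither passed on that day (adjusted p = 0.928 and 0.374). Fgf5 at 0.06, Dnmt3b at 0.23, Itga1 at 0.18, Ptgs1 at 0.45 and Prmt8 at -0.45 did not pass either. Their adjusted p values were 0.953, 0.196, 0.656, 0.421 and 0.643 in that order (edgeR). The change between days in the effect of dTAG-13 was tested in the same fit. Of the 71 genes, 20 had an unadjusted p under 0.05 for it (5.46% of all genes did). Pnrc1, a nuclear receptor coregulator, passed the adjusted threshold (0.0453% of all genes did), going from -0.42 at day 0 to 0.22 at day 1. The 71 were chosen by their day 0 effect, which enters this difference. A share above that of all genes is therefore favoured by the choice.

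In the PCGF35 line, with a normal SPOC domain, the treated and untreated cultures carry replicate numbers 1 and 2. In replicate 1, 51 of the 54 lower genes were below 0 and 13 of the 17 higher genes above 0, with medians of -0.24 and 0.12, against 50.0% below and 49.9% above 0 among genes that were not called. In replicate 2 the counts were 34 of 54 and 13 of 17, with medians of -0.20 and 0.90. That second pair stood apart. Its differences had an SD of 0.436 over genes of at least 10 CPM, against 0.135 to 0.166 in F10, F6 and replicate 1 at day 0, and they followed gene length, with a median of -0.38 under 5 kb and 0.51 over 500 kb. In a joint fit of the 16 ES libraries, 0 genes passed in the PCGF35 line (smallest adjusted p = 0.076, 2663 at an unadjusted p under 0.05). At the unadjusted level 20 of the 54 were lower and none higher there, against 8.89% of all genes lower, and 13 of the 17 were higher and none lower, against 8.14% of all genes higher.

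The effect of dTAG-13 was not shown to differ between the lines. The test of the difference, with SPOC mutated against SPOC normal, gave 0 genes by edgeR's quasi-likelihood test and 0 by DESeq2. At an unadjusted p under 0.05 there were 844 genes (5.36%), among them 7 of the 71. The libraries that chose the 71 enter this difference as well, which favours their share. The count of 0 for the difference depended on the PCGF35 libraries. Without dTAG-13 replicate 1 of that line, which left the replicate that stood apart as the only treated day 0 library of the line, 3387 genes were called for the difference and 5559 for the PCGF35 line itself. Without dTAG-13 replicate 2 the counts were 1 and 4. In the joint fit the effect in PCGF35_SPOC also gave 0 calls, with 354 genes at an unadjusted p under 0.05. The common dispersion was 0.00915 there, against 0.00183 among the 8 PCGF35_SPOC libraries. After dTAG-13, uninduced Xist in the PCGF35 line went from 77.9 to 136 CPM in replicate 1 and from 46.6 to 109 CPM in replicate 2. Its log2 fold change in that line was 1.01 (adjusted p = 0.0938, edgeR). For Xist the difference between the lines was -0.83, with an unadjusted p of 0.00124 and an adjusted p of 0.777 (edgeR).

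**Figure D4:**
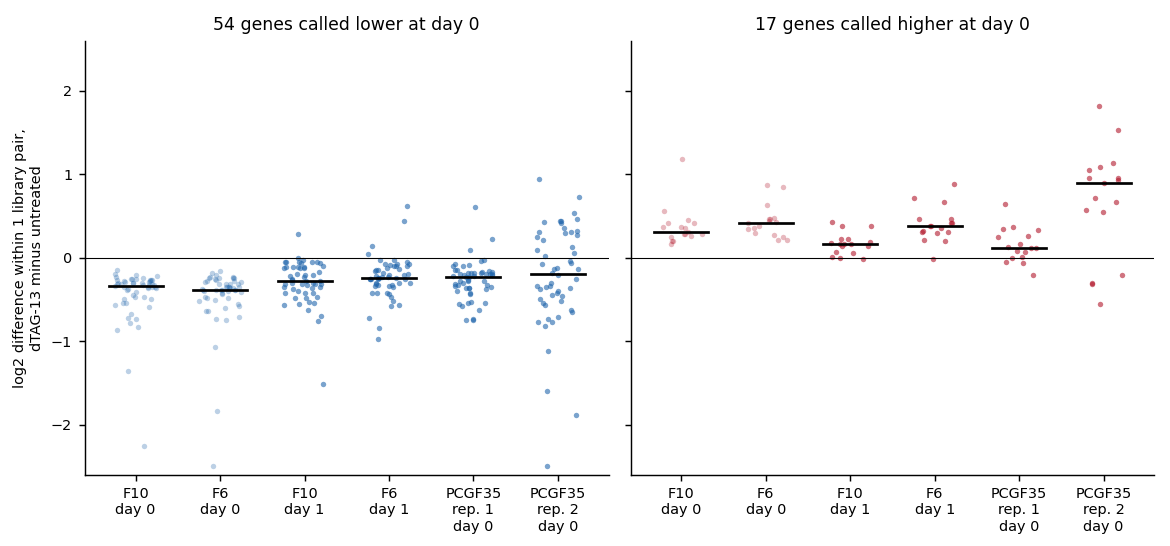
Log2 difference within each pair of a treated and an untreated library (y axis) for the 54 genes called lower (left, blue) and the 17 called higher (right, red), with 1 point per gene, black bars at the medians and values beyond 2.5 drawn at 2.5. The 2 day 0 pairs of F10 and F6 on the left of each panel gave the contrast that was called, and the 2 day 1 pairs were part of the same fit. Medians keep their sign in the other 4 pairs, and the second PCGF35 pair is the most spread.

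No gene of the Polycomb machinery passed. None of 34 tested genes of PRC1 subunits and partners passed, with a median log2 fold change of 0.01, and none of 12 PRC2 genes, with a median of 0.02, while the median over all genes was 0.00305. Auts2, a partner of PCGF3 and PCGF5, had 1116 and 945 CPM untreated and 1203 and 1010 CPM treated (adjusted p = 0.669). Suz12, a core PRC2 subunit, had 726 and 929 CPM untreated against 687 and 995 CPM treated, without a common direction in the clones. Jarid2, a PRC2 cofactor and the most highly expressed of that list, had 4667 and 1530 CPM untreated and 3095 and 1459 CPM treated. Most of its difference was in F10 (log2 fold change -0.35, adjusted p = 0.276), it passed without the filter (adjusted p = 3.22e-08) and with the 4 day 0 libraries alone (adjusted p = 2.47e-06), and at day 1 it was higher by 0.53 (adjusted p = 0.0178, edgeR). Classical Polycomb targets could hardly be read at this depth. Of 39 Hox genes only 3 passed the filter on low counts, and these had log2 fold changes down to -0.33 without passing. Among 71 transcription factors of other lineages, 28 were tested, none passed, and 20 of the 28 were below 0 with a median of -0.12. The 36 tested germline genes and the 11 of the 2-cell stage had medians of 0.000293 and 0.02, with none called.

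Pluripotency genes gave 2 calls. Of 19 tested core and formative genes, Dnmt3b and Fgf5 rose (0.11% of all genes did), none passed as lower, 14 were above 0 and the median was 0.16. In that list Otx2 had a log2 fold change of 0.19 and Lin28a one of 0.30, and neither passed (adjusted p = 0.397 and 0.175). Foxp1, 1 of the 2 members with the highest level, had -0.10 (adjusted p = 0.649, edgeR). None of 23 naive genes passed, 15 were above 0 and their median was 0.07. Esrrb, a nuclear receptor of naive cells, was at 438 and 532 CPM untreated and 443 and 529 CPM treated, and Zfp42 at 598 and 520 CPM against 588 and 553 CPM. Of 12 DNA methylation genes 1 passed as higher, against 0.11% of all genes, and this is the same Dnmt3b call. Uhrf1, which brings the maintenance methyltransferase to DNA, had a log2 fold change of 0.22 (adjusted p = 0.0973), and 9 of the 12 were above 0. Tet1 and Zfp57, the 2 with the highest level, had -0.03 and 0.11 (adjusted p = 0.943 and 0.560, edgeR). In the neural list of 10 tested genes none passed, with a median of -0.01.

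In the ERK output list, 20 genes were tested and 1, Fos, passed as lower, against 0.35% of all genes. At an unadjusted p under 0.05, 5 were lower and 3 higher, and the lowest fitted value was -1.49. Egr1, another immediate early gene, had a log2 fold change of -0.50 without passing (adjusted p = 0.244), whereas Etv1 and Etv5, ETS factors downstream of FGF signalling, had 0.30 and 0.13 (adjusted p = 0.153 and 0.505). The list therefore held values on both sides, and its median was 0.01. Of 22 genes of Notch signalling and NCoR none passed, and of 20 p53 targets and 21 stress genes of the ATF4 pathway none did, with medians of 0.01, -0.00450 and 0.06. The genes of the degradation machinery used by dTAG-13, among them Ddb1 and Cul4b, had 6 members tested, none called and a median of 0.03.

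Imprinted genes were measured as clusters. Around Kcnq1ot1, a noncoding RNA that spreads Polycomb over a domain of chromosome 7, all 13 tested genes were above 0 with a median of 0.18, although none passed the test, and 7876 of all 15444 genes tested were above 0. The potassium channel gene Kcnq1 had 0.31 (adjusted p = 0.338) and Osbpl5 0.37 (adjusted p = 0.434). Nap1l4, 1 of the 2 with the highest level, had 0.04 (adjusted p = 0.892, edgeR). Kcnq1ot1 itself was at 1470 and 1300 CPM untreated and at 1569 and 1397 CPM treated. At day 1 the median of the cluster was 0.22, and in the PCGF35 line it was 0.09. The 6 tested genes around Airn had a median of 0.03 and the 34 other imprinted genes one of 0.02, with none called in either list.

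Lists of other cell types held no call. Of 12 tested primitive endoderm genes 10 were below 0, with a median of -0.18 and none called. The basement membrane genes Lama1 and Col4a1 had the highest levels of that list, and their log2 fold changes were -0.24 and -0.17, neither past the threshold (adjusted p = 0.0828 for Lama1). Lama1 passed without the filter (adjusted p = 0.00168) and with the 4 day 0 libraries alone (adjusted p = 0.000227, edgeR). The 19 tested fibroblast genes had a median of 0.00499 and none passed. In the list of abundant noncoding RNAs Rmrp was the single call of 10 tested genes, and Malat1 was at 9074 and 7852 CPM untreated and 9378 and 7482 CPM treated.

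**Figure D5:**
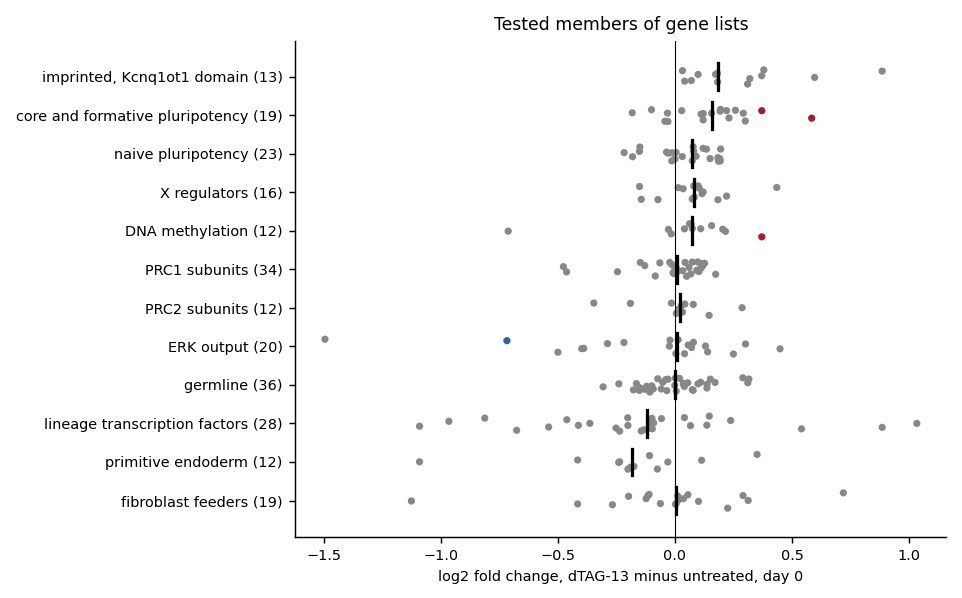
Log2 fold change at day 0 (x axis) of the tested members of 12 gene lists (y axis, number tested in brackets), with called members in red (higher) or blue (lower), the others in grey and a black bar at each median. Members of the Kcnq1ot1 domain all lie to the right of 0 and most primitive endoderm genes to the left, but the only called members are Dnmt3b, which is in both the formative and the methylation list, Fgf5 and Fos.

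X-linked genes were read apart because F6 had held cells without a second X. Of 598 X-linked genes tested 60.2% were above 0, against 50.6% of 14846 autosomal genes, and 3 were called higher and 1, Arhgap6, lower, against 14 higher and 53 lower among the autosomal genes. The median over X genes was 0.01 in F10, within the range of the autosomes from -0.02 to 0.02, and 0.05 in F6, above their range from -0.03 to 0.02. The 16 tested regulators of Xist and X inactivation had a median of 0.08 with none called. Allelic fragments were read as the share of Dom, the chromosome that carries the TetOn promoter. Summed over the whole X, this share was 31.6% and 32.2% in untreated F10 and F6 and 31.6% and 32.5% in treated ones. The paper states that a recombination in the parental line keeps some X-linked genes out of allelic analysis. The ratio that follows therefore covers only part of the X. The median Dom share of the 246 X-linked genes in the authors' deposited table, their allelic ratio, was 0.516 and 0.514 in untreated F10 and F6. In treated F10 and F6 it was 0.514 and 0.523. The difference of 0.00358 had p = 0.667 by an exact two-sided permutation test over libraries, which cannot go below 0.333 here. Exact sign flips within clones gave p = 1, with a smallest possible value of 0.5.

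Allele use did not change detectably at any gene tested. The 12220 genes had at least 10 allelic fragments in each library and a Dom share above 0.1 and under 0.9. Genes read almost wholly from 1 allele were therefore not tested. Of the 12220, 0 passed the edgeR quasi-likelihood test and 0 passed limma on the Dom fraction, with 623 and 632 genes at an unadjusted p under 0.05 (5.10% for edgeR). Outside chromosome 16, Dom shares summed over a chromosome moved by -0.50 to 0.27 percentage points between treated and untreated cells of a clone. Chromosome 16 went from 33.5% to 43.3% Dom in F10 and from 50.3% to 51.0% in F6. Without the gene Filip1l it was at 51.7% in both F10 libraries. In F6 it was then at 51.5% untreated and 51.4% treated.

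Calls at this effect size depended on the clone term and on each library. Without the clone term, 0 genes were called (53 at an unadjusted p under 0.05). DESeq2 called 26 genes, 25 of them among the 71, and leaving out single libraries gave 7 (without untreated F10), 11 (without untreated F6), 21 (without treated F6) and 27 (without treated F10).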

How the data were processed

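The authors sequenced chromatin-associated RNA, removed rRNA reads with Bowtie2 2.3.2, aligned the rest with STAR 2.4.2a to N-masked mm10, split fragments by allele and counted them over whole transcripts, introns included, with featureCounts. The deposited counts are raw fragments per gene, in total and for the Cast and Dom alleles. The authors' deposited X-linked ratio table holds the Dom fraction of allelic fragments. No column of per-sample values was left unused (0 in number).

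Genes passing filterByExpr were tested with edgeR 4.0.16 (R 4.3.3) by quasi-likelihood on the 8 ES libraries of the PCGF35_SPOC line, with TMM scaling, 1 mean per group and clone as a term, and Benjamini-Hochberg adjustment over all genes. The difference from the PCGF35 line was fitted on 16 ES libraries. Allele use was fitted on Dom and Cast counts of genes with at least 10 allelic fragments in each library. Their Dom share over the 8 libraries had to be above 0.1 and under 0.9. DESeq2 1.42.0 and limma 3.58.1 served as alternatives. The libraries of a group are different clones of 1 line, and the clone term takes out the difference between F10 and F6. The p-values measure the spread left after the clone and group means. That spread had 3 residual degrees of freedom and was moderated across genes with 26.5 prior degrees of freedom. It does not measure how far other clones would differ. Clone names pair the libraries, since a clone is 1 cell line, and the deviations of the 2 libraries of a clone from the group means correlated at 0.866 over genes. The tests were checked on simulated counts in which all genes shared 1 spread, the clones responded alike and only well-counted genes were changed. Recovery in the real data may therefore be lower. In the simulation the day 0 comparison recovered 38.8% of genes changed by 0.3 on the log2 scale and 91% of those changed by 0.6. The test of the difference between lines recovered 0% and 14.9% at these sizes and that of allele use 1.49% and 26.9%, so counts of 0 in these tests do not show that small differences were absent. CPM use all fragments and the TMM factors, except sums of markers and shares of fragments, which use totals alone.

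Xist, Spen, Pcgf3 and Pcgf5 were picked for naming. So were the 12 with the largest change per direction among those called with at least 1 CPM and the same direction in both clones. Per list, the called members and the 2 with the highest level were picked, but not all of these are described. Others, such as Bmp6, Otx2, Lin28a, Uhrf1, Egr1, Etv1, Kcnq1 and Osbpl5, were added after their values were seen. Members and lists were chosen with earlier results of these data known, and support nothing by themselves. Removal of a trend with gene length was an alternative chosen after seeing the data. RefSeq promoters of GRCm38.p6, the assembly behind mm10, were matched by symbol.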

Additional observations from a re-analysis of the deposited data

Results flagged for a closer look

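The effect of dTAG-13 differed between day 1 and day 0 at 7 genes in the edgeR quasi-likelihood fit of the 8 PCGF35_SPOC libraries, which is 0.0453% of the genes tested, and in all 7 the day 1 effect was the higher. Filip1l differed by 4.45 on the log2 scale (adjusted p = 0.00470). It was at 10646 CPM in untreated and 3935 CPM in treated F10 at day 0, at 459 and 6753 CPM in F10 at day 1, and in F6 it went from 613 to 247 CPM at day 0 and from 11.4 to 10.1 CPM at day 1. Untreated F10 itself thus went from 10646 CPM at day 0 to 459 CPM at day 1. Over the 58 libraries of the series, Filip1l took between 0.000356% and 4.69% of all fragments. Nearly all allelic fragments of Filip1l were Cast, 116397 against 56 Dom in untreated F10 at day 0.

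D130009I18Rik differed by 4.63 (adjusted p = 0.00439), Cntnap5b by 2.56 (adjusted p = 0.00213), Itga9 by 1.60 (adjusted p = 0.000139) and Jarid2 by 0.88 (adjusted p = 0.0246). In F10 the treated library was the lower at day 0 and the higher at day 1 for these 4 genes, as for Filip1l. Pnrc1 differed by 0.63 (adjusted p = 0.0259), with 40.4 and 32.6 CPM in untreated and treated F10 at day 0 and 35.3 and 42.9 CPM at day 1. Nhs, on the X, differed by 0.39 (adjusted p = 0.0368), with a log2 fold change of -0.07 at day 0 and 0.31 at day 1. Day counts days of doxycycline here. The day 0 and day 1 libraries are also separate cultures, so doxycycline and culture cannot be told apart. Over the 58 libraries, D130009I18Rik ran from 2.7e-05% to 2.72% of all fragments and Jarid2 from 0.106% to 2.53%. Those libraries also differ in cell line, stage and treatment. Whether the differences between days at these genes exceed the variation between cultures was not tested.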

How the results depend on the processing

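With clone as a replicate block 71 genes were called, and without the replicate block 0 were called, both with the 8 ES libraries and with all 58 libraries (53 and 31 at an unadjusted p under 0.05). The block on the 4 day 0 libraries alone gave 234 calls, 70 of them among the 71. Without a filter 160 genes were called and with DESeq2 26, while another scaling gave 72. Leaving out 1 library gave 7 to 27 calls. Of the 71 genes 70 kept their direction in all 10 alternatives planned for the count, the exception being Pom121l2. For the PCGF35 line, called at 0 genes, DESeq2 gave 44, no filter 2, the 8 day 0 libraries alone with the block 1, and leaving out 1 library 0 to 5559, the highest without dTAG-13 replicate 1. The difference between the lines stayed at 0 in the other alternatives, blocked or not, and ran from 0 to 3387 when 1 library was left out. Allele use gave 0 to 1 genes without 1 library and 0 otherwise, also without the block. The difference in X allelic ratio was 0.00358 with and without pairing by clone and ran from -0.000526 to 0.00768 over the other settings. The causes of these changes were not tested.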
